A study of Ovis aries with 3 samples.

Results

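The mucosa of the cecum was compared with that of the proximal colon in small tailed Han sheep, to describe what separates these neighbouring regions of the large intestine. The tissue came from 3 ewes aged 11 months, which were pooled into 1 RNA-seq library per region, so each value below is a single measurement of a pool. A duodenum library of the same ewes was read beside them as a point of reference. The labels call all 3 samples intestinal mucosal epithelial tissue, and no group received a treatment.

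A transcript entered the comparison if it reached 10 RPKM in the cecum or in the colon, RPKM being reads scaled to exon length and to the read total of the library. This held for 26526 of the 83089 transcripts with reads in any of the 3 libraries. Transcripts that shared an exon carried the same reads and were joined, which left 8624 loci of 28601, each represented by its transcript with the most reads. A gene table gave a symbol to 3457 of these loci (40.1%), and every other locus is known only by its RefSeq transcript. The reads summed over distinct exons came to 64368455 for the cecum and 74984599 for the colon. At these depths a count of 0 allows up to 4.66e-06% of the exon reads of the cecum library and 4e-06% of those of the colon library.

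The limit of 10 RPKM split transcripts of nearly the same level. XM_012117269.1 was just inside it with 9.90 RPKM in cecum and 10.0002 in colon, and TNFSF10 was just outside with 9.9998 and 6.90. Of the 8624 loci, 7313 passed in both regions, 830 in the cecum alone and 481 in the colon alone.

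The cecum is a fermentation chamber at the start of the large intestine, in which microbes break down fibre that escaped the rumen and the small intestine. The colon that follows takes up water, salts and short-chain fatty acids, and its goblet cells secrete the mucus that keeps the microbes off the epithelium. Both regions also hold lymphoid tissue, in which B cells mature into plasma cells that make immunoglobulin A.

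The regions were alike for most loci. Of the 8624 loci, 88.0% differed by less than 1.5-fold and 96.0% by less than 2-fold in RPKM. A locus was called higher in a region if the fold change was at least 2 and the false discovery rate of the Audic-Claverie test, which compares the reads of 2 libraries, was below 0.001. By this rule 162 loci (1.88%) were higher in cecum and 181 (2.10%) in colon. Counted as transcripts, 419 (1.58%) were higher in cecum and 549 (2.07%) in colon. Among the 3200 named genes, 68 (2.12%) were higher in cecum and 75 (2.34%) in colon. All of the transcripts that passed the fold limit also passed the test, so the calls rest on the fold change. The test sees only the sampling of reads, and with 1 library per region no difference has a replicate check. When a coefficient of variation of 0.4 was assumed in edgeR's exact test, 4 loci were called in cecum and 21 in colon at an adjusted p below 0.05.

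The share of calls on the cecum side depended on the scaling. It was 47.2% of the called loci with the read totals of the libraries, and 35.0% (119 loci against 221) when the reads of the 10 most abundant loci were taken out of the totals. These 10 loci held 4.51% of the cecum total and 14.56% of the colon total, and leaving them out moved every log2 ratio of cecum over colon by -0.16. The median log2 ratio of the named genes was 0.14 with the full totals and -0.02 without those loci.

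Large differences were more frequent on the colon side. At least 4-fold, 32 loci were higher in cecum and 72 in colon, and at least 16-fold the counts were 3 and 20. Of the calls at 2-fold, 89 of 162 in cecum and 119 of 181 in colon passed 10 RPKM in that region alone. For such loci the opposite call could not occur. Among loci past the limit in both regions, 73 were called in cecum and 62 in colon. B3GNT7 and XM_012141174.1, which had nearly the same reads, were counted as separate loci on the colon side. In the plot of both regions the loci of the colon side reach far to the left, where the cecum had almost no reads.

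**Figure D1:**
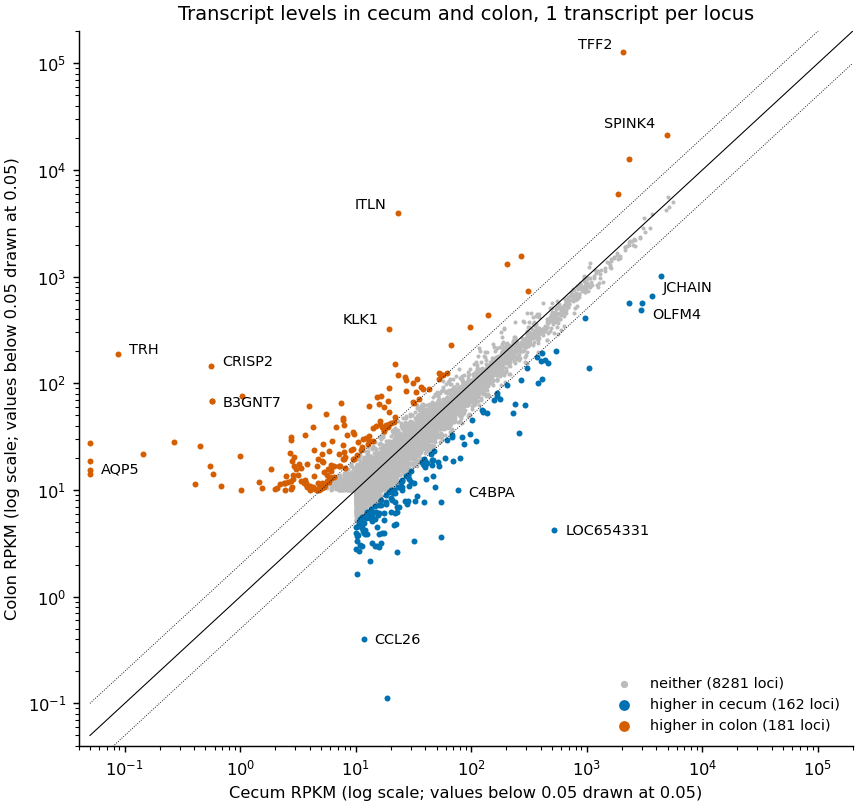
RPKM of 8624 loci in the cecum (x axis, log scale) and in the colon (y axis, log scale), 1 point per locus and 1 pooled library per region. The solid line marks equal levels and the dotted lines a 2-fold difference, with 162 loci called higher in the cecum in blue and 181 called higher in the colon in orange. TFF2 stands alone at the top at 127220 RPKM in the colon.

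A single transcript carried much of the distance between the regions. TFF2, a trefoil peptide that is secreted with mucus and protects the epithelial surface, had 1470 RPKM in duodenum, 2060 in cecum and 127220 in colon. It was 61.8-fold higher in the colon than in the cecum, with a log2 ratio of cecum over colon of -5.95 (95% interval of the reads -5.96 to -5.94). Its reads were 6.03% of all exon reads in the colon (Wilson interval 6.022 to 6.033%) and 0.0978% in the cecum. It was the locus with the most reads in the colon and stood at place 75 in the cecum. The base of these shares is the sum over distinct exons, which in the colon was 1.393 times the read total used for RPKM.

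With TFF2 the colon held more of the summed differences, and without it the side depended on the scaling. Over the 8624 loci the absolute differences in RPKM summed to 278526, of which TFF2 alone gave 44.9%. The 2 largest differences gave 50.8% and the 10 largest gave 62.1%. The loci with a higher level in the colon summed to a difference of 183698 RPKM and those with a higher level in the cecum to 94827. Once TFF2 was left out, the colon sum was 58538 and the cecum sum was still 94827. More loci had the higher level in the cecum (5637) than in the colon (2987). With the reads of the 10 most abundant loci taken out of the totals, both turned. The sums without TFF2 were then 60008 for the cecum and 89126 for the colon, and 3600 loci had the higher level in the cecum against 5024. With TMM or median-ratio factors they kept the cecum side.

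The correlation between the regions depended on the same transcript. Across the 8624 loci, Pearson's r of RPKM was 0.26 with all of them, 0.727 without the most abundant locus, 0.806 without the 2 most abundant, 0.895 without 10 and 0.952 without 50. On the log2 scale with 1 added, r was 0.94 with every locus, and Spearman's rho was 0.918. The points share the 2 libraries and genes are not independent replicates, so these values describe the libraries only.

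**Figure D2:**
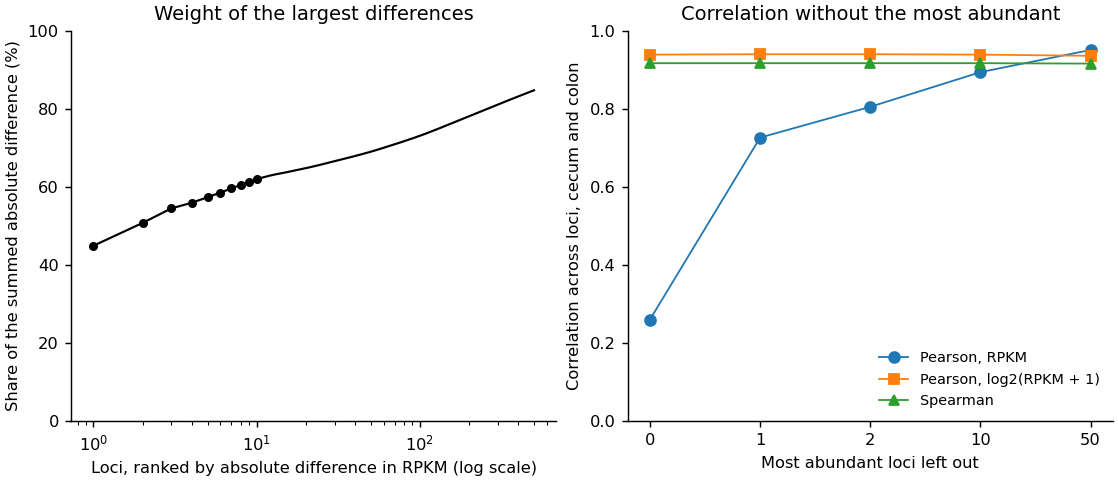
Left, share of the summed absolute RPKM difference between cecum and colon (y axis, %) held by the loci with the largest differences (x axis, log scale), with points for the first 10, from 44.9% for TFF2 to 62.1% for 10 loci. Right, correlation across loci between the regions (y axis) after leaving out the most abundant loci (x axis), where Pearson's r of RPKM goes from 0.26 to 0.952 while the log2 and rank correlations stay near 0.94 and 0.918.

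Other abundant products of goblet cells were also higher in the colon. SPINK4, a protease inhibitor of goblet cells, had 4905 RPKM in cecum and 21237 in colon, a 4.33-fold difference. AGR2, a disulfide isomerase needed to fold mucins, had 1874 and 5912 RPKM (3.15-fold). The trefoil peptide TFF3, another goblet cell product, had 3684 and 3847 RPKM and was called for neither region. XM_012153721.1, for which the table gave no symbol, had 2303 RPKM in cecum and 12679 in colon (5.51-fold). Of the 37 genes on the list for mucous and goblet secretion, 9 were found by name and 8 passed 10 RPKM. All 8 had the higher level in the colon and 6 were called (TFF2, KLK1, SPINK4, AGR2, BCAS1 and AGR3), with a median log2 ratio of -1.40. MUC2, the gel-forming mucin of the intestine, was not matched by name and is not analysed here.

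Several genes of secreted proteins had large ratios on the colon side. ITLN, an intelectin that binds microbial sugars, had 1.69 RPKM in duodenum, 23.1 in cecum and 3968 in colon, which made it 172-fold higher in the colon than in the cecum. KLK1, a tissue kallikrein, had 19.45 RPKM in cecum and 323 in colon (16.6-fold). BPIFB1, a secreted protein of the BPI fold family, had 0.551 and 16.9 RPKM (30.8-fold). Each of the 3 was higher in the colon in every exon with at least 1 RPKM.

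TRH and CRISP2 were near 0 in the duodenum and cecum and well measured in the colon. TRH, which encodes the precursor of thyrotropin-releasing hormone, had 0 reads in duodenum, 7 in cecum and 17713 in colon. This gave 0.0874 RPKM in cecum and 190 in colon, a 2180-fold difference with a log2 interval from -12.40 to -10.04. CRISP2, a cysteine-rich secretory protein best known from the testis, had 0.561 RPKM in cecum and 145 in colon (259-fold). LOC101106871, of which the table gives no function, was also near 0 in the cecum, with 1.03 RPKM against 76.9 in the colon (74.6-fold), but it was high in the duodenum with 123 RPKM.

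Genes that build and decorate mucin sugars followed the mucous genes in direction. Of the 17 genes of mucin-type glycan synthesis past 10 RPKM, 14 had the higher level in the colon, 6 were called there and none in the cecum, with a median log2 ratio of -0.61. B3GNT7, which extends N-acetyllactosamine chains, had 0.570 RPKM in cecum and 67.7 in colon (119-fold). XM_012141174.1, without a symbol, had nearly the same reads as B3GNT7 in both regions, so the pair cannot be counted as separate genes. The other called genes differed by 2.02- to 2.38-fold and were B4GALT1, a galactosyltransferase, GALNT6, which starts O-glycans, CHST4, a sulfotransferase, GNE, the first enzyme of sialic acid synthesis, and the sialyltransferase ST3GAL6. ST6GALNAC6 had 154 and 236 RPKM and did not reach the fold limit.

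**Figure D3:**
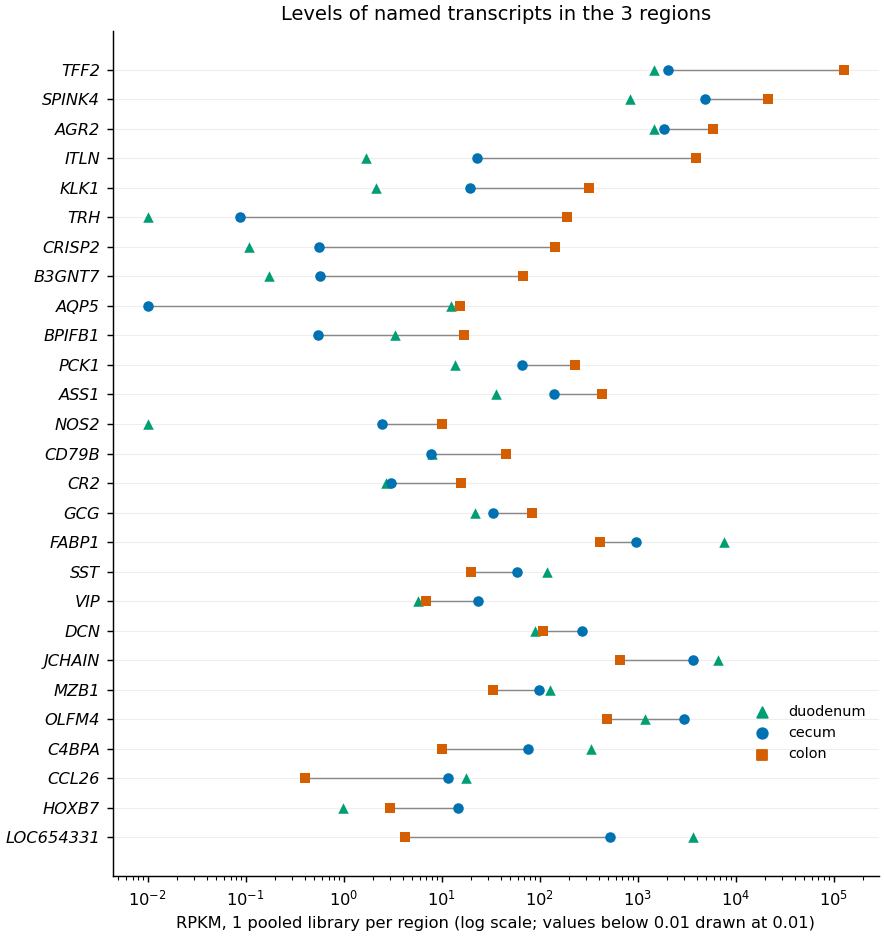
RPKM (x axis, log scale) of 27 named transcripts in the duodenum (green triangles), cecum (blue circles) and colon (orange squares), 1 pooled library per region, with a grey line from cecum to colon. Levels in the duodenum lie near or below those of the cecum for most genes of the upper part. Genes with the duodenum above the cecum include AQP5, BPIFB1, FABP1, SST, JCHAIN, MZB1, C4BPA, CCL26 and LOC654331.

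Transporters of salt and water were mostly at similar levels. Of 17 genes of ion and water transport past 10 RPKM, 2 were called higher in the colon, none in the cecum, and the median log2 ratio was -0.07. CA12, a carbonic anhydrase of the cell surface, had 8.45 RPKM in cecum and 32.6 in colon (3.85-fold), and the water channel AQP8 had 8.03 and 16.2 (2.02-fold). CFTR, the chloride channel of secretory cells, lay on the cecum side with 22.6 and 12.4 RPKM but did not reach 2-fold. The water channel AQP1, which is abundant in endothelium, had 140 and 80.2 RPKM.

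Outside the list, the water channel AQP5, known from secretory glands, had no read in cecum and 1045 in colon. Its level was 12.5 RPKM in the duodenum and 15.3 in the colon, and against the floor of 3 reads in the cecum library it was at least 300-fold higher in the colon. CLDN8, a claudin that seals tight junctions, had 2.94 and 20.4 RPKM (6.95-fold), a gene named after its values were seen.

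A few metabolic enzymes were called, and most were not. On the list of glycolysis and gluconeogenesis, 1 of 11 genes was called. It was PCK1, which makes phosphoenolpyruvate for gluconeogenesis, with 66.2 RPKM in cecum and 231 in colon (3.49-fold), while LDHB had 477 and 418. On the list of arginine and nitrogen handling, 2 of 7 were called in the colon. ASS1, which joins citrulline to aspartate on the way to arginine, had 140 and 438 RPKM (3.14-fold), and NOS2, which uses arginine to make nitric oxide, had 2.45 and 10.01 (4.08-fold) with 0 reads in the duodenum.

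Of 12 genes for handling short-chain fatty acids and ketones past 10 RPKM, 2 were called, both in the colon. BDH1, which forms the ketone beta-hydroxybutyrate, had 2.79 RPKM in cecum and 10.6 in colon (3.82-fold). SLC16A1, the main monocarboxylate transporter, had 40.1 and 33.04 RPKM and was not called. SLC5A8, the sodium-coupled transporter, stayed under the limit with 0.796 and 1.99 RPKM, and was named after its values were seen. The 8 genes of oxidative phosphorylation past the limit had log2 ratios from 0.16 to 0.53 and none was called.

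Among the genes found by name, most of the lipid network that the study built for these regions was close in level or under the limit. Its hub CEPT1, which makes phosphatidylcholine and phosphatidylethanolamine, had 36.7 RPKM in cecum and 31.3 in colon (1.17-fold). Of the 20 genes listed from that network, 12 were found by name and 4 passed 10 RPKM, with log2 ratios from -0.12 to 0.32 and no call. A shorter transcript of GPD1L, a glycerol-3-phosphate dehydrogenase, passed the limit with 10.4 and 4.61 RPKM and was called higher in the cecum (2.24-fold). In the other direction, a shorter transcript of PLA2G4F, a cytosolic phospholipase A2 of the same list, passed with 4.93 and 10.2 RPKM and was called higher in the colon (2.07-fold). FABP1, the fatty acid binding protein of absorptive cells, was called in the cecum with 7692 RPKM in duodenum, 967 in cecum and 413 (413.5) in colon, a 2.34-fold difference. It was the single call among the 5 fat absorption genes that passed the limit.

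The study's own lipid pathways for these regions held calls in both directions. They were chosen on these samples, so their direction is not independent evidence, and only some of their transcripts are in the files (10 of 20 for glycerophospholipid metabolism). Among the 7 transcripts of that pathway past 10 RPKM, GPD1L and LOC101107420 were called in cecum and ACHE and LOC101109935 in colon. Of the 5 fat digestion transcripts, 3 were called in the cecum, from LOC101103860 (2 transcripts, log2 ratios 2.18 and 2.19) and LOC101107420 (2.22), and 1 in the colon, LOC101109935 (-2.59). All 3 transcripts of keratan sulfate synthesis were called in the colon, among them B3GNT7 and CHST4.

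LOC101107420 had neighbours that moved with it. In the gene order of the RefSeq table it lies between LOC101107171 and LOC101107675, with only non-coding genes between them, and this stretch is flanked by PLA2G5 and PLA2G2E, genes of secreted phospholipases A2. LOC101107171 had 1952 RPKM in duodenum, 2333 in cecum and 563 in colon. LOC101107420, here by its transcript with the most reads, had 2124, 289 and 62.02 RPKM. Of the 9 exons of that transcript with at least 1 RPKM, 6 were higher in the cecum. Its other transcript, counted in the pathways above, had 2665, 363 and 77.8 RPKM with all 4 exons higher in the cecum. LOC101107675 had 236 (235.5), 258 and 34.3. All 3 were called in the cecum, by 4.14-, 4.66- and 7.52-fold. PLA2G2D, on the other side of PLA2G5, lay in the other direction with 1.18 and 4.17 RPKM and did not pass the limit. Whether these genes share reads was not tested.

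The genes with the largest ratios on the cecum side were of several kinds. LOC654331, a transcript of the study's PCR panel without a named function here, had 3648 RPKM in duodenum, 524 in cecum and 4.25 (179 reads) in colon, a 123-fold difference between cecum and colon. CCL26, an eosinophil-attracting chemokine, had 11.7 and 0.401 RPKM (29.2-fold), the colon value resting on 15.4 reads. C4BPA, a chain of the complement inhibitor C4b-binding protein, had 337 RPKM in duodenum, 76.3 in cecum and 9.97 in colon (7.66-fold). All 3 had their highest level in the duodenum.

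OLFM4, a secreted glycoprotein of crypt base cells, was among the most abundant transcripts of the cecum and at place 2 by reads there. It had 1204 RPKM in duodenum, 2945 in cecum and 483 in colon, a 6.09-fold difference (log2 interval 2.60 to 2.62). Of 11 crypt and proliferation genes past the limit OLFM4 was the single call. Of the 11, 7 had the higher level in the cecum and 4 in the colon. MYC had 24.5 and 14.98 RPKM, and on the colon side STMN1 had 78.6 and 136 and TOP2A 23.8 and 30.8.

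B cell genes and plasma cell genes went opposite ways. JCHAIN, the chain that joins immunoglobulin A into polymers, had 6626 RPKM in duodenum, 3659 in cecum and 663 in colon, and was 5.52-fold higher in the cecum than in the colon. MZB1, a chaperone of plasma cells, had 98.1 and 33.4 RPKM (2.94-fold), and CCR10, named after its values were seen and a homing receptor of IgA plasma cells, had 15.1 and 4.48 (3.38-fold). These 3 genes of antibody-secreting cells were all lowest in the colon.

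The called genes of the B cell itself were lowest in the cecum or the duodenum. CD79B, part of the B cell receptor, had 7.75 (457.56 reads) RPKM in cecum and 45.1 in colon (5.81-fold). CR2, the complement receptor of B cells and follicular dendritic cells, had 3.01 and 15.7 RPKM (5.23-fold). The transcript of the B cell factor PAX5 that passed the limit had 0.682 and 10.99 RPKM (16.1-fold). CCL20, which draws B cells and dendritic cells to lymphoid follicles, had 3.21 and 17.7 RPKM (5.51-fold). Of 8 genes of the B and plasma cell list past the limit, 3 were called in the colon, 2 in the cecum and 3 in neither, so the median of the list (-0.79) describes neither kind of cell. In these pools fewer cells of a type and less RNA per cell cannot be told apart.

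None of the 8 genes of the T and NK cell list past 10 RPKM was called, CD3E had 68.4 RPKM in cecum and 56.9 in colon, and LCK had 25.5 and 26.0. Of the 13 innate defence genes past the limit, 5 were called in the colon and 3 in the cecum. Besides those named above, LTF, the iron-binding lactoferrin, had 38.3 and 89.0 RPKM, and SERPINA1, which inhibits neutrophil elastase, had 12.9 (12.95) and 28.6. On the cecum side were lysozyme, LYZ, with 29.8 and 11.98 RPKM and the neutrophil chemokine CXCL8 with 13.7 and 6.65, the latter under 2-fold when the 10 most abundant loci were left out of the totals.

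Connective tissue and muscle genes lay on the cecum side. All 9 fibroblast and matrix genes past the limit had the higher level there, with a median log2 ratio of 0.72, and DCN and MGP were called. DCN, the matrix proteoglycan decorin, had 270 RPKM in cecum and 107 in colon (2.51-fold). All 8 smooth muscle genes also lay on that side, with log2 ratios from 0.36 to 0.87 and none called. These directions held under all 3 other scalings, the largest of which lowers each log2 ratio by 0.16 (-0.16).

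These markers belong to cells outside the epithelium that the labels name. The summed level of the 9 smooth muscle genes found was 1432 RPKM in duodenum, 6490 in cecum and 4485 in colon, and that of the 9 fibroblast genes was 882, 2686 and 1530. For endothelium it was 49.5, 111 and 63.7 RPKM over 5 genes, and for enteric neurons and glia 25.4, 67.7 and 35.0 over 7. None of the genes found on these 4 lists was at 0 in either large intestine library. DES, the muscle desmin, reached 1376 (1376.5) RPKM in the cecum, beside 550 for the epithelial adhesion molecule EPCAM. EPCAM itself had 596 RPKM in the colon and KRT8, an epithelial keratin, had 1635 in cecum and 1198 in colon. The part of non-epithelial cells in the calls was not tested.

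Several called genes of the cecum side are known from these cells outside the epithelium. VIP, a neuropeptide of enteric neurons, had 5.71 RPKM in duodenum, 23.7 in cecum and 6.91 in colon (3.43-fold). EMCN, an endothelial sialomucin, had 10.1 and 4.54 RPKM (2.22-fold). GREM1, a BMP antagonist of subepithelial fibroblasts, had 24.8 and 11.9 (11.95) RPKM, and FBN1, a microfibril protein, had 40.0 and 16.5 with all 65 exons of at least 1 RPKM higher in the cecum. GREM1 and FBN1 were named after their values were seen. MGP, EMCN and GREM1 fell under 2-fold when the 10 most abundant loci were left out of the totals.

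**Figure D4:**
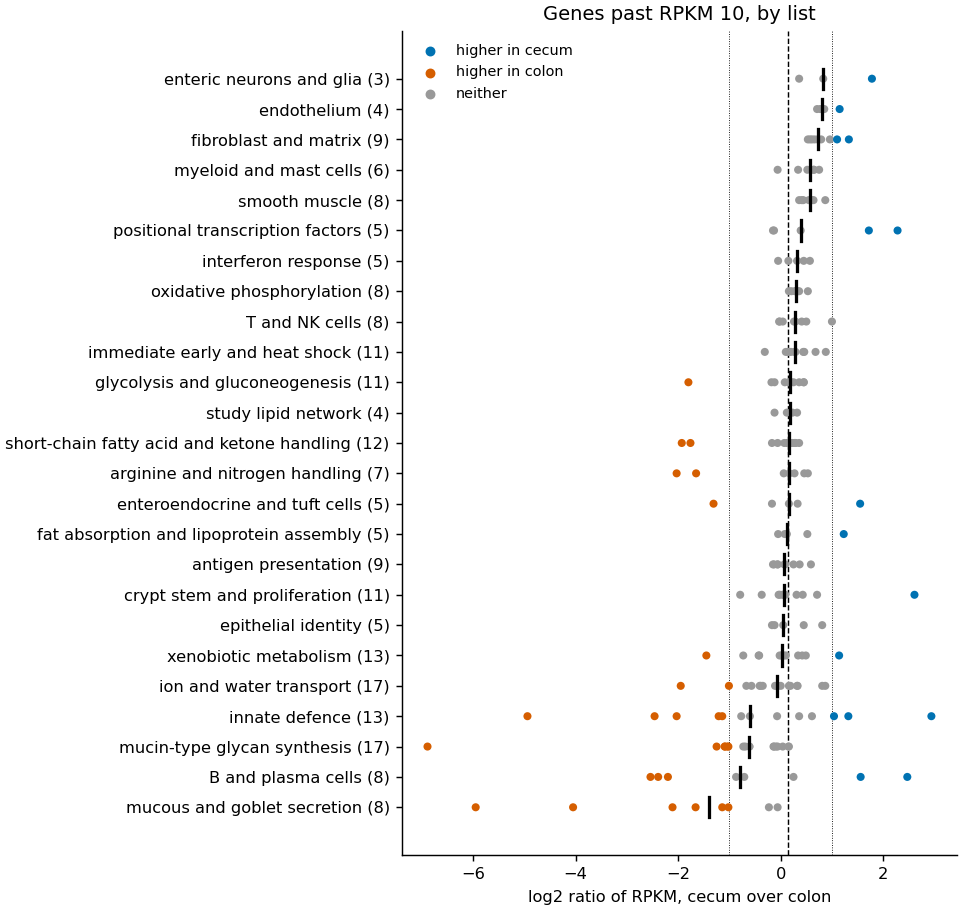
Log2 ratio of RPKM, cecum over colon (x axis), of each gene past 10 RPKM in either region, by gene list (y axis, number of genes in brackets), for lists with at least 3 such genes. Blue and orange points were called for the cecum or for the colon, grey points in neither, black bars are list medians, the dashed line is the median of the named genes (0.14) and the dotted lines mark 2-fold. Mucous genes lie lowest with a median of -1.40, and lists of neurons, endothelium and fibroblasts lie highest.

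Some genes that set position along the gut differed between the regions. HOXB7 had 14.6 RPKM in cecum and 2.99 in colon (4.87-fold) and HOXC6 had 22.7 and 6.90 (3.29-fold), both called in the cecum.

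Some HOX genes under the limit also differed. HOXB13, which marks the hindmost part of the body axis, had 0 RPKM in duodenum, 0.0705 in cecum (4.61 reads) and 8.07 in colon (614 reads), below the limit of 10 RPKM. HOXD10, also below the limit, had 3.93 RPKM in cecum and 0.292 in colon, and both were named after their values were seen. HOXA9 was alike in both with 12.3 and 13.4 RPKM. Of the 45 genes listed, 18 were found by name and 5 passed the limit.

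Gut hormone genes were called in both directions. GCG, which encodes glucagon-like peptides, had 33.4 RPKM in cecum and 82.9 in colon (2.48-fold). SST, which encodes somatostatin, had 118 RPKM in duodenum, 59.0 in cecum and 20.1 (20.15) in colon (2.93-fold). CHGA, a general marker of endocrine cells, had 134 and 151 RPKM and was called in neither.

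For most calls the exons had 1 direction. Of the 343 called loci, 321 (93.6%) had the same direction in every exon with at least 1 RPKM in either region. The 4 exons of TFF2 had log2 ratios from -5.99 to -5.91, the 8 of ITLN from -7.67 to -7.10, the 4 of SPINK4 from -2.16 to -2.09 and the 7 of OLFM4 from 2.51 to 2.81. In the plot of single exons these transcripts form tight groups.

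A few calls rested on part of the exons. LOC100125357, which the gene table also lists as ITLN2, was called higher in the colon by 6.96-fold, yet 6 of its 8 exons were higher in the cecum and its exon ratios ran from -3.90 to 4.91. Its transcript level over all exons is therefore uncertain. Whether it shares reads with ITLN, a close relative, was not tested. RPL10A, a ribosomal protein gene, was called higher in the cecum by 2.60-fold with 3 of 6 exons in that direction and ratios from -0.76 to 4.11. With the median over exons in place of the mean, LOC100125357 turned to the cecum side (2.94) and RPL10A to the colon side (-0.42). Both were singled out after their values were seen.

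**Figure D5:**
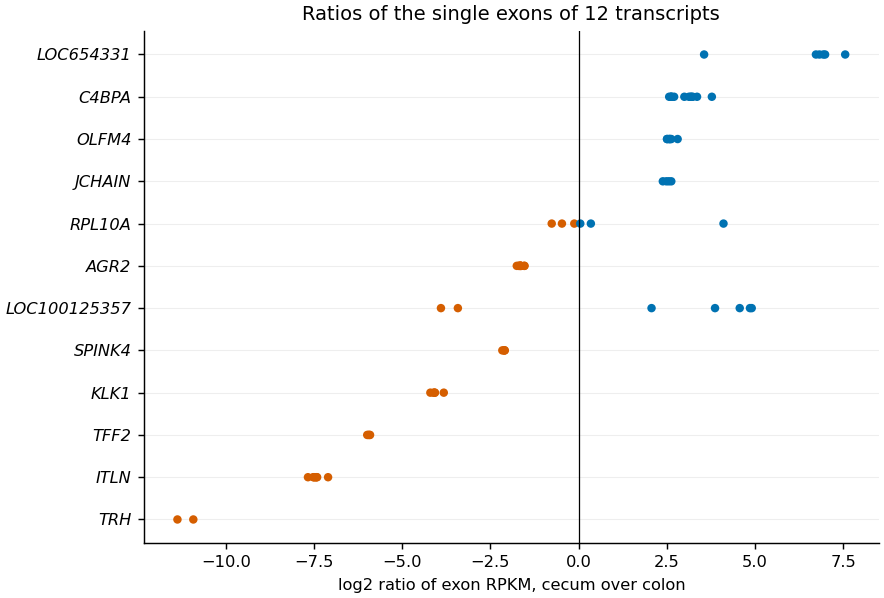
Log2 ratio of RPKM, cecum over colon (x axis), of each exon with at least 1 RPKM in either region and reads in both, for 12 transcripts (y axis), so that exons with no read in 1 region are not drawn (1 exon of TRH, for example). Blue exons were higher in the cecum and orange exons in the colon. The exons of TFF2 lie between -5.99 and -5.91, while those of LOC100125357 and RPL10A fall on both sides of 0.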

How the data were processed

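RNA of the mucosa of each region was sequenced by the authors as 1 library per region, pooled from 3 small tailed Han ewes. The methods describe alignment with Bowtie2 and quantification with RSEM on sheep genome v4.0, and the submitters' processing notes name BWA and Bowtie 0.12.2. The build of the exon files is not given in the sources used here. The authors deposited, for each exon of each RefSeq transcript, an expected count of reads (an estimated count), of which 88.3% were not whole in either library, and an RPKM based on the read total in the file header. The coverage percent, also deposited by the authors, was not used.

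Estimated counts and exon lengths were summed per transcript over exons seen in any library, with absent exons at 0, and RPKM was recomputed with the header totals. Summed over distinct exons, reads came to 1.39 times the cecum total and 1.393 times the colon total. An RPKM of 0 was set to 0.001 for ratios. Sums were rounded to whole numbers for the Audic-Claverie test (two-sided) with Benjamini-Hochberg adjustment over the 26526 transcripts with RPKM of at least 10 in either region. Ratios have exact 95% Clopper-Pearson intervals and shares have Wilson intervals. These cover counting error only, as do the floors of 3 reads. The test was tested on simulated data.

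Symbols came from RefSeq (assembly ARS-UI_Ramb_v3.0) by accession for 8735 transcripts (10.5%), were passed to the other transcripts of a locus, and came from the study's supplement alone for 23 loci. No coordinates or sequences were used. Named were the 15 loci with the largest RPKM difference and up to 6 genes of each of 27 lists. Also named were the 15 per direction with the largest log2 ratio with 1 added and 1 direction in every exon. The study's PCR genes other than REG4 and ADA were added, and its hubs, of which MBOAT1 was not matched. The comparison, its members and the gene lists were chosen with earlier results of these data known. Python 3.11.15, NumPy 2.4.6, pandas 2.3.3, SciPy 1.17.1, matplotlib 3.10.9, and R 4.3.3 with edgeR 4.0.16 were used. The alternatives were other filters, pseudocounts, scalings, exon summaries, fold limits and an exact test with an assumed variation. Some genes are not reported here.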

Additional observations from a re-analysis of the deposited data

How the results depend on the processing

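Counts are given for the cecum first and the colon second, and the alternatives for loci were added after seeing the data. With 1 RPKM in either region as the limit, 530 and 512 loci were called (1583 and 1596 transcripts), and with no limit 781 and 921 (2613 and 2796). With 10 RPKM asked of both regions the counts were 73 and 62 loci (179 and 211 transcripts). One transcript per locus gave 162 and 181, and transcripts measured on exons of 1 transcript alone 279 and 310 (140 and 134 loci, so the order of the regions turned). With a fold limit of 4, 32 and 72 loci were past it (110 and 203 transcripts). The edgeR exact test with an assumed variation of 0.4 called 4 and 21 loci (22 and 38 transcripts), against 54 and 92 loci at an unadjusted p below 0.05. Other pseudocounts, other scalings, the fold limit alone and the median over exons kept every count of transcripts and loci within 1.5 times the one reported. Scaling by median ratios, TMM or totals without the 10 most abundant loci left between 29.8% and 36.3% of the called transcripts on the cecum side, against 43.3%.

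Over transcripts, Pearson's r of RPKM was 0.296, and 0.796, 0.855, 0.92 and 0.944 without the 1, 2, 10 and 50 most abundant loci, 0.93 on the log2 scale and 0.912 for ranks. Counting every transcript, the largest difference gave 27.5% of the summed difference and the 10 largest 39.4%, and the 10 with the most reads held 2.96% of the cecum reads and 5.4% of the colon reads. With the median over exons LOC100125357 had a log2 ratio of 2.94 and RPL10A of -0.42. Of the 193 named called transcripts, 19 fell under 2-fold without the 10 most abundant loci in the totals and 23 with a pseudocount of 1. The medians of 6 of the 27 lists changed sign without those 10 loci (epithelial, fat absorption, xenobiotic, antigen presentation, enteroendocrine and crypt genes), 4 with median ratios and 3 with TMM. Without those loci 3600 loci had the higher level in the cecum, and the summed excess of the cecum without TFF2 was 60008 RPKM, both reversed in side.

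No paired analysis was possible because each region has 1 library. For the same reason no library was left out in turn. Depth limits the genes near 0 in a region, such as TRH, AQP5 and HOXB13.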

Other observations

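Genes of interferon response, antigen presentation and stress were close between the regions. None of the 5 interferon genes past 10 RPKM was called, and MX1, an antiviral GTPase, had 18.4 RPKM in cecum and 14.7 in colon. None of the 9 antigen presentation genes was called either, with B2M, the light chain of class I molecules, at 5049 and 5590 RPKM (5589.5) and the class II chaperone CD74 at 1028 and 968 (968.5). The 11 immediate early and heat shock genes had log2 ratios from -0.31 (FOS) to 0.88 (HSPA1A). The 6 myeloid genes past the limit had a median log2 ratio of 0.58 with no call. The mast cell gene TPSB2 had 11.8 and 12.2 RPKM (12.25).

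Of 13 genes of xenobiotic metabolism past the limit, GSTA1 was called in the colon with 814 RPKM in duodenum, 10.4 in cecum and 28.5 in colon, all from 1 exon. MGST1, a microsomal glutathione transferase, was called in the cecum with 168 (168.5) and 76.3 RPKM. The other 11 lay within 2-fold. Of the 2 adipocyte genes past the limit, CFD had 131 and 196 RPKM and FABP4 had 17.8 and 25.9, and neither was called. The only enterocyte marker of the small intestine past the limit was SLC5A1, the sodium-glucose transporter, with 71.4 RPKM in duodenum, 41.3 in cecum and 51.9 in colon.

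The duodenum lay below both large intestine regions for 92 of the 162 loci higher in the cecum (56.8%) and for 108 of the 181 higher in the colon (59.7%). It lay above both for 28 of the former (17.3%) and 14 of the latter (7.73%). The limit of 10 RPKM was not asked of the duodenum. The same shares over all loci past the limit were not computed, so these values describe the called loci only. Among the 498 loci represented by a non-coding transcript, 12 (2.41%) were called in cecum and 18 (3.61%) in colon. Over all 8624 loci these shares were 1.88% and 2.10%. In the gene order of the RefSeq table AGR3 follows AGR2, and both were called in the colon. SERPINF2, the plasmin inhibitor, had 23.0 and 120 RPKM and was called in the colon, while SERPINF1, next to it, had 15.9 and 6.15 and was called in the cecum.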
